A study of Arabidopsis thaliana with 26 samples.

Results

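SPCH (SPEECHLESS, locus AT5G53210, chromosome 5) and STOMAGEN (locus AT4G12970, chromosome 4) act at the start of the pathway that makes stomata, the pores of the leaf surface. Both were taken by gene name from the array annotation. Each had 1 probe set, 248247_at for SPCH and 254794_at for STOMAGEN, so they are 2 of the 22810 probe sets on the array. They are described here across all 26 arrays of the study, with the questions of when SPCH transcript is lost from developing leaves and what level of each is left in mature leaves.

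The plants were Arabidopsis thaliana of the accession Col-0, kept in compost in a growth room with a day of 10 h of light, at 20 °C and 50% humidity. All of them had ambient CO2 and ambient light, so no group was given another light or CO2 level. Mature leaves were taken at 24 h, with 2 arrays. Developing leaves, from insertions 19 to 21 on the rosette, were sampled at 6 times (2, 4, 12, 24, 48 and 96 h), 4 arrays per time. The labels leave out the hour of day at which the count of hours began, the rosette position of the mature leaves, or whether the replicates are separate plants or pools. The p-values below therefore measure the spread between these arrays, which may be technical. The times of 24, 48 and 96 h are whole days apart and so share a clock time, while 2, 4 and 12 h do not.

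Values are MAS5 intensities as the authors deposited them, with every array scaled to a 2% trimmed mean of 100. Array medians ranged from 40.7 to 47.0, and the mean correlation between arrays of a group ranged from 0.967 in developing leaves at 24 h to 0.981 in developing leaves at 2 h. No calls of presence or absence were used here, so a low intensity is an upper limit on the transcript and not a measure of its absence. The number of arrays, 2 for mature leaves, limits the precision. Changes are differences of log2(intensity + 4.35), tested with limma over the 13648 probe sets that passed a filter on low mean intensity. A change is called at a Benjamini-Hochberg adjusted p under 0.05. Both SPCH and STOMAGEN passed the filter.

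SPCH is a basic helix-loop-helix transcription factor. Together with its partner ICE1 (SCREAM) it turns an undifferentiated epidermal cell into a meristemoid mother cell, the first step of the stomatal lineage. Its relatives MUTE and FAMA act after it, MUTE in ending the asymmetric divisions and FAMA in the final division and guard cell fate. STOMAGEN is a small secreted cysteine-rich peptide of the EPIDERMAL PATTERNING FACTOR family, made in the inner tissue of young leaves. It promotes stomata by competing with the inhibitory peptides EPF1 and EPF2 for receptors of the ERECTA family and TOO MANY MOUTHS. Signalling from those receptors through a mitogen-activated protein kinase cascade lowers the amount of SPCH protein, a step that an array of transcripts does not measure.

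SPCH transcript was near the floor of the array in mature leaves and present in developing leaves at every time, to 96 h. Its intensity in the 2 mature leaf arrays was 2.95 and 1.96. In developing leaves at 24 h, the same labelled time, it was 85.4, 77.1, 147 and 119.6. All 24 arrays of developing leaves were higher than both mature ones, and the lowest of them, at 45.9, was 15.5 times the highest mature value. The share of all probe sets that separated in this way is not given, here or for the genes below.

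The mean SPCH intensity was 2.46 ± 0.70 in mature leaves (SD, n = 2), against 107 ± 32.2 in developing leaves at 24 h (SD, n = 4), which is 2.29% of the developing level and, with the mature value near the floor, an upper limit. The log2 difference was -3.99 ± 0.25 (SE; 95% interval -4.52 to -3.47), with a limma adjusted p of 3.57e-13. Of all probe sets tested, 37.6% were called lower in mature leaves in this comparison.

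Against developing leaves at 96 h, the oldest taken, mature leaves held 3.43% of the SPCH intensity, again an upper limit. This is a log2 difference of -3.47 ± 0.25 (SE; limma adjusted p = 1.16e-11), in a comparison in which 33.3% of probe sets were called lower. SPCH at the last developing time was thus still far above its level in mature leaves. The size of the difference depends on the constant added before the log: it was -4.94 with a constant of 1 and -2.38 with a constant of 21.7, both against developing leaves at 24 h.

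The level in mature leaves cannot be told from background. SPCH lay at the 11.1 and the 7.22 percentile of its array in the mature samples, and between the 50.3 and the 79.6 percentile in the developing samples. A lower level in a whole leaf can come from fewer cells of a type or from less RNA in each of them, and these cannot be told apart here, for SPCH or for any gene below.

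**Figure D1:**
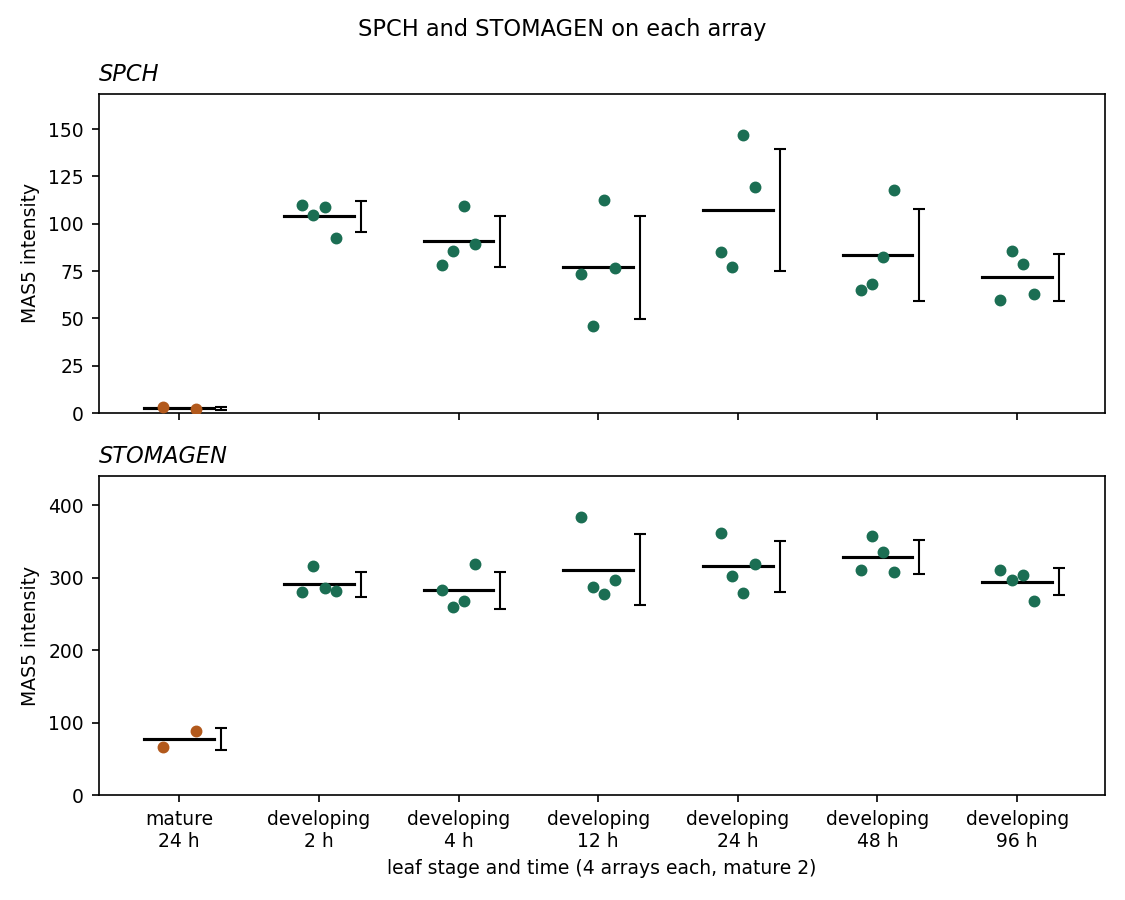
Intensity of SPCH and STOMAGEN on each array (points), with group means (horizontal lines) and SD (vertical bars), for mature leaves at 24 h on the left and developing leaves from 2 to 96 h to the right. Both axes start at 0, and values of the 2 genes come from different probes and are not to be set against each other. SPCH lies at 1.96 and 2.95 in mature leaves and between 45.9 and 147 in developing leaves, and STOMAGEN at 66.8 and 88.3 against 260.2 to 383.

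Within developing leaves SPCH showed no sharp loss. The 4 arrays at 2 h gave 110.2, 104, 109 and 92.3, and those at 4 h gave 78.4, 85.7, 109.6 and 89.5. At 12 h the values were 73.2, 45.9, 112 and 76.6. The 12 h group thus held the lowest array of all developing leaves beside one as high as any at 2 h.

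At 48 h the 4 values of SPCH were 64.9, 68.3, 82.4 and 118, and at 96 h they were 59.8, 85.5, 78.6 and 62.9. The 96 h arrays all lay below the 2 h arrays, and they overlapped those of the other 4 times. The mean was 104 ± 8.12 for the 2 h leaves, 90.8 ± 13.4 for 4 h and 77.0 ± 27.3 for 12 h, followed by 107 ± 32.2 for 24 h, 83.4 ± 24.2 for 48 h and 71.7 ± 12.3 for 96 h (SD, n = 4 each). The highest developing mean was 1.496 times the lowest. The spread within a group was uneven, with a coefficient of variation of 7.82% at 2 h and 35.4% at 12 h.

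Ordered by mean log2 value, the groups ran 24 h (6.76), 2 h (6.76), 4 h (6.56), 48 h (6.42), 12 h (6.28), 96 h (6.23) and mature leaves (2.76). No developing group differed from its neighbour in that order beyond the spread, with limma adjusted p between 0.648 and 0.995. The step between mature leaves and developing leaves at 96 h had the adjusted p of 1.16e-11 given above. Over the 6 times as a whole, the limma F-test gave F = 2.40 and an adjusted p of 0.0935 for SPCH, in a test that called 62.4% of all probe sets. It passed when replicate 2 of 24 h, replicate 3 of 12 h or replicate 4 of 48 h was left out (adjusted p = 0.0440, 0.0212 and 0.0404).

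The comparison of the last time with the first was the 1 of 15 pairs of developing times in which SPCH was called. Its intensity at 96 h was 69.0% of that at 2 h. The fitted log2 difference was -0.52 ± 0.21 (SE; 95% interval -0.95 to -0.094; limma adjusted p = 0.0454), and 22.7% of all probe sets were called lower in the same comparison. The call was lost when any of 6 of the 8 arrays was left out, with adjusted p up to 0.126 without replicate 1 of 96 h. The other 5 were replicates 3 and 4 of 96 h (adjusted p = 0.0507 and 0.109) and replicates 1, 2 and 3 of 2 h (0.0897, 0.0793 and 0.0877).

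A measure of RNA quality moved with the same comparison. The log2 ratio of the 3′ to the 5′ probe set of the actin control was 1.53 ± 0.50 at 96 h and 2.66 ± 0.15 at 2 h (SD, n = 4 each). The like ratio of the ubiquitin control was 1.17 ± 0.14 at 96 h and 1.64 ± 0.24 at 2 h. That of the GAPDH control was 0.15 ± 0.096 at 96 h and 0.31 ± 0.13 at 2 h. Its ranges overlapped, at 0.071 to 0.28 and 0.18 to 0.47. When the actin ratio was added to the model, the change of SPCH was -0.17 (limma adjusted p = 0.680). The actin ratio was 2.43 to 2.77 at 2 h and 1.22 to 2.28 at 96 h, without overlap. In this comparison RNA quality and time therefore cannot be told apart. In the 2 mature leaf arrays the actin ratio was 1.20 and 1.99 (mean 1.60 ± 0.56, SD), against 2.14 ± 0.49 in developing leaves at 24 h. The GAPDH ratio did not move with it, at 0.45 ± 0.43 in mature leaves and 0.38 ± 0.42 in developing leaves at 24 h (SD). The part of RNA quality in the small change over time, or in the level in mature leaves, was not tested beyond this covariate.

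Other steps of SPCH in developing leaves did not pass the threshold. The change was -0.47 (95% interval -0.90 to -0.045; adjusted p = 0.0736) at 12 h against 2 h, where 39.2% of probe sets were called. It was 0.47 (0.047 to 0.90; adjusted p = 0.0732) at 24 h against 12 h, where 38.4% were called. Both rest on the spread of the 12 h arrays: without replicate 3 of 12 h the first was -0.67 with a limma adjusted p of 0.0122, and the second was 0.67 (0.0124). The second also passed without replicate 1 or 2 of 24 h (adjusted p = 0.0478 and 0.0287). The 12 h arrays lie at another clock time than those of 2 h and 24 h. Time of day and age of the leaf therefore cannot be told apart in these 2 steps, for SPCH or for any gene below. Between times at the same clock hour, the change was -0.34 (adjusted p = 0.481) at 48 h against 24 h, a step in which 0.315% of probe sets were called. It was -0.52 (95% interval -0.95 to -0.096; adjusted p = 0.0845) at 96 h against 24 h, where 17.2% were called. Without replicate 2 of 24 h this last step passed (-0.66, adjusted p = 0.0427). These p-values do not show that SPCH was steady, since the intervals for 12 h against 2 h and for 96 h against 24 h reach a loss of the size called at 96 h against 2 h.

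A straight line over the 24 developing arrays, chosen after the data were seen, gave a slope for SPCH of -0.094 ± 0.049 log2 units per day (SE; limma adjusted p = 0.129), where 40% of all probe sets had a slope that passed. Over the 12 arrays at 24, 48 and 96 h the slope was -0.16 ± 0.066 (adjusted p = 0.113; 13.4% of probe sets passed). Without the 12 h arrays it was -0.12 ± 0.041 (n = 20; adjusted p = 0.0177; 46.5% of probe sets passed). The sign was the same in all 3 fits, while the call depended on the 12 h arrays: leaving out replicate 2 of 12 h alone gave -0.11 (adjusted p = 0.0320).

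STOMAGEN held a level in developing leaves with little scatter, and a level far below it in mature leaves. Its intensity in the 2 mature leaf arrays was 66.8 and 88.3. In developing leaves at 24 h it was 361, 302, 279 and 319. The groups did not overlap, and the lowest developing array of any time, at 260.2, was 2.95 times the highest mature one.

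The mean STOMAGEN intensity was 77.5 ± 15.2 in mature leaves (SD, n = 2), against 315 ± 34.9 in developing leaves at 24 h (SD, n = 4), or 24.6% of it. On the log2 scale the difference was -1.97 ± 0.13 (SE; 95% interval -2.23 to -1.71; limma adjusted p = 3.77e-13). Against developing leaves at 96 h, mature leaves held 26.3%, a log2 difference of -1.88 ± 0.13 (SE; 95% interval -2.14 to -1.62; adjusted p = 2.07e-12). Of all probe sets tested, 37.6% were called lower against 24 h and 33.3% against 96 h. Unlike SPCH, STOMAGEN stayed well inside the measured range in mature leaves, at the 61.7 and 69.3 percentile of its arrays, against 88.9 to 92.8 in developing leaves. In size of fall it was 431st of 13648 against developing leaves at 24 h, with 3.15% of probe sets falling further.

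Over the 6 times in developing leaves no change of STOMAGEN was called. The arrays gave 279.8, 316, 286 and 281 at 2 h, 283, 260.2, 268 and 319 at 4 h, and 383, 287, 278 and 296 at 12 h. They gave 311, 358, 336 and 308 at 48 h and 311, 296, 304 and 268 at 96 h. Every group overlapped its neighbours in time, and the highest group mean was 1.16 times the lowest.

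The STOMAGEN mean was 291 ± 17.1 for the 2 h leaves, 282 ± 25.9 for 4 h and 311 ± 48.5 for 12 h, followed by 315 ± 34.9 for 24 h, 328 ± 23.3 for 48 h and 295 ± 19.0 for 96 h (SD, n = 4 each). The coefficient of variation was between 5.87% and 15.6%. By mean log2 value the order was 48 h (8.37), 24 h (8.31), 12 h (8.29), 96 h (8.22), 2 h (8.20), 4 h (8.16) and mature leaves (6.34), with no neighbours among the developing groups apart beyond their spread (limma adjusted p between 0.633 and 0.955).

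The limma F-test over the 6 times gave F = 1.20 and an adjusted p of 0.393 for STOMAGEN. Of the 15 pairs of developing times, 0 were called by limma, and 1 had an unadjusted p under 0.05. The change at 96 h against 2 h was 0.019 ± 0.10 (SE), and its 95% interval covers 0.875 to 1.17 times the 2 h level. A loss of STOMAGEN beyond the lower of these bounds is therefore outside the interval. Its slope over the 24 arrays was 0.011 ± 0.023 log2 units per day (SE; limma adjusted p = 0.737).

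**Figure D2:**
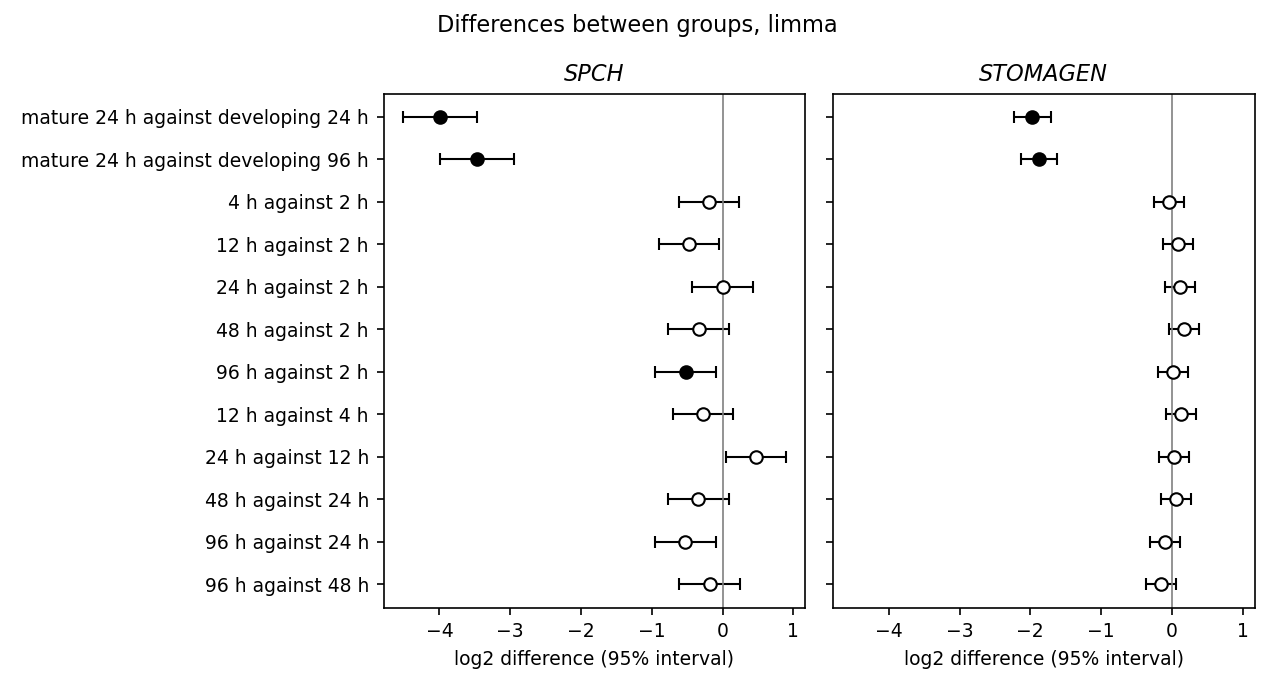
Log2 differences of SPCH and STOMAGEN for the comparisons of mature with developing leaves and of each later with an earlier time in developing leaves (points), with their 95% intervals (bars) on 1 shared axis. Filled points are called, at an adjusted p under 0.05, and open points are not. The differences for mature leaves lie near -4 and -3.5 for SPCH and near -2 for STOMAGEN, while those between developing times lie within 0.6 of 0.

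Whether the 2 transcripts changed by different amounts was tested on the difference of their log2 values in each array, over 7 comparisons, with an exact 2-sided permutation test. In mature leaves against developing leaves at 24 h, STOMAGEN fell less than SPCH: its change minus that of SPCH was 2.02 on the log2 scale (exact p = 0.0667, the smallest this design can give; adjusted p = 0.156). Against developing leaves at 96 h the difference was 1.59 (exact p = 0.0667; adjusted p = 0.156). With 2 mature arrays these tests cannot pass 0.05, and the size depends on the added constant, from 0.61 to 2.92 in the first comparison and from 0.26 to 2.47 in the second.

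At 96 h against 2 h, the change of STOMAGEN (0.019) minus that of SPCH (-0.52) was 0.54, with 4 of 4 arrays of 96 h above all those of 2 h (exact p = 0.0286, the smallest possible; adjusted p = 0.156). At 48 h against 2 h the difference was 0.51 (exact p = 0.114; adjusted p = 0.2), and at 24 h against 2 h it was 0.11 (exact p = 0.714). None of the 7 passed after adjustment.

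Across the 26 arrays SPCH and STOMAGEN correlated at r = 0.89, and within the 24 developing arrays at r = -0.20. The arrays share scaling and leaf stage, so the first value describes the gap between mature and developing leaves, and no p is given.

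Of 40 genes listed for the stomatal pathway, 7 had a probe set with a name here, and 5 of these are genes other than SPCH and STOMAGEN. Among 12 lineage factors 4 had a probe set and 2 passed the filter, SPCH and FAMA. In mature leaves against developing leaves at 24 h, 1 of these 2 was called lower and 0 higher, in a comparison in which 37.6% of all probe sets were called lower. Their median log2 difference, the midpoint of -3.99 and -0.35, was -2.17 beside -0.15 over all probe sets tested. Among 28 signalling genes 3 had a probe set and 2 passed, STOMAGEN and AT5G10310, a gene listed in the same peptide family, with 2 called lower and 0 higher and a median of -1.26. This median is the midpoint of -1.97 and -0.54. Both counts and both medians include SPCH or STOMAGEN itself, so they do not describe the pathway apart from these 2 genes. Receptors, inhibitory peptides EPF1 and EPF2, ICE1 and the kinase cascade were not analysed here.

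FAMA, the factor that acts last, was not called in any of these comparisons. Its intensity was 46.2 and 47.8 in mature leaves, and 46.7 to 84.4 in developing leaves at 24 h (median 59.9). The groups overlapped, and the log2 difference was -0.35 ± 0.20 (SE; limma adjusted p = 0.133). Against 96 h it was -0.21 ± 0.20 (adjusted p = 0.389), and the F-test over the 6 times gave an adjusted p of 0.876. The 95% interval of the first comparison, -0.77 to 0.063, does not reach the change of SPCH.

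MUTE, the factor between the other two, was dim throughout and did not pass the filter, so it was tested in a fit of all 22746 probe sets. It had 3.92 and 3.11 in mature leaves and 1.66 to 25.1 in developing leaves (median 12.2), of which 21 of 24 arrays were above both mature ones. The change on the log2 scale was -1.08 ± 0.54 (SE; limma adjusted p = 0.117) against 24 h. Against 96 h it was -1.12 ± 0.54 (adjusted p = 0.117), and there the arrays did not overlap, with 5.25 to 23.9 at 96 h. At these intensities the spread within a group is wide, and no change of MUTE was called, including over the 6 times (adjusted p = 0.882).

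BRXL2 (ATBRXL2), a BREVIS RADIX family protein that takes part in the polarity of asymmetrically dividing lineage cells, did not pass the filter either. It had 10.4 and 15.01 in mature leaves, against 27.4 to 39.98 in developing leaves at 24 h (median 29.3). The log2 difference was -1.07 ± 0.21 (SE; limma adjusted p = 1.24e-04), where 24.2% of all 22746 probe sets were called lower. Against 96 h it was -0.72 ± 0.21 (adjusted p = 0.00779; 20.9% of probe sets called lower), a call lost without replicate 1 of the mature leaves (adjusted p = 0.150).

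In developing leaves BRXL2 was also lower at 48 h, at 18.2 ± 2.68, against 31.3 ± 6.64 at 2 h (SD, n = 4 each). The 2 groups did not overlap. This is a log2 difference of -0.65 ± 0.17 (SE; limma adjusted p = 0.00951), with 7.14% of all probe sets called lower. At 96 h it was 23.6 ± 4.08, and the difference from 2 h was -0.34 ± 0.17 (adjusted p = 0.146).

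AT5G10310 differed from STOMAGEN in its course, with a peak at 12 h. It was 68.1 ± 11.8 at 12 h, against 34.1 ± 3.46 at 2 h (SD, n = 4 each), and the arrays of the 2 times did not overlap. The fitted log2 difference was 0.90 ± 0.17 (SE; limma adjusted p = 1.43e-04; 20.6% of probe sets called higher). At 24 h against 12 h the change was -0.60 (adjusted p = 0.00726; 20.7% called lower). Since 12 h lies at another clock time than 2 h and 24 h, time of day and age of the leaf cannot be told apart.

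In mature leaves AT5G10310 was 23.3 and 33.7, against 28.3 to 56.9 in developing leaves at 24 h (median 45.7). On the log2 scale the difference was -0.54 ± 0.21 (SE; limma adjusted p = 0.0289), where 37.6% of probe sets were called lower. This call was lost without replicate 1 or 3 of developing leaves at 24 h (adjusted p = 0.0621 and 0.0969) and without replicate 1 of mature leaves (0.343). Against 96 h the difference was -0.32 (adjusted p = 0.209).

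ATSBT5.2, a subtilase listed for its cleavage of the EPF2 peptide, went the other way. It had 69.2 and 53.5 in mature leaves, against 21.8 to 39.8 in developing leaves at 24 h (median 24.1). The change on the log2 scale was 1.07 ± 0.29 (SE; limma adjusted p = 0.00409; 18.8% of the 22746 probe sets called higher). Against 96 h it was 0.97 ± 0.29 (adjusted p = 0.0103; 15.8% called higher). Without replicate 1 of mature leaves these 2 calls were lost (adjusted p = 0.0708 and 0.123). All 24 developing arrays were below both mature ones.

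Markers of other leaf cells moved with the same comparisons. AT1G22690, listed for guard cells, had 269 and 215 in mature leaves, against 45.5 to 181 over all developing arrays. Its log2 difference from developing leaves at 24 h was 1.05 ± 0.25 (SE; limma adjusted p = 6.02e-04), where 24.1% of probe sets were called higher. At 96 h it was 151 ± 25.4, against 90.4 ± 8.38 at 2 h (SD, n = 4 each), a difference of 0.70 ± 0.20 (adjusted p = 0.00654; 19.1% called higher). In these comparisons it was higher where SPCH was lower, but not in others. At 12 h against 2 h it was at -0.39 (adjusted p = 0.134) beside -0.47 for SPCH, and at 24 h against 12 h it was at 0.71 (adjusted p = 0.00686; 17.6% called higher) beside 0.47 for SPCH. With the actin ratio as a covariate its adjusted p at 96 h against 2 h was 0.0627.

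**Figure D3:**
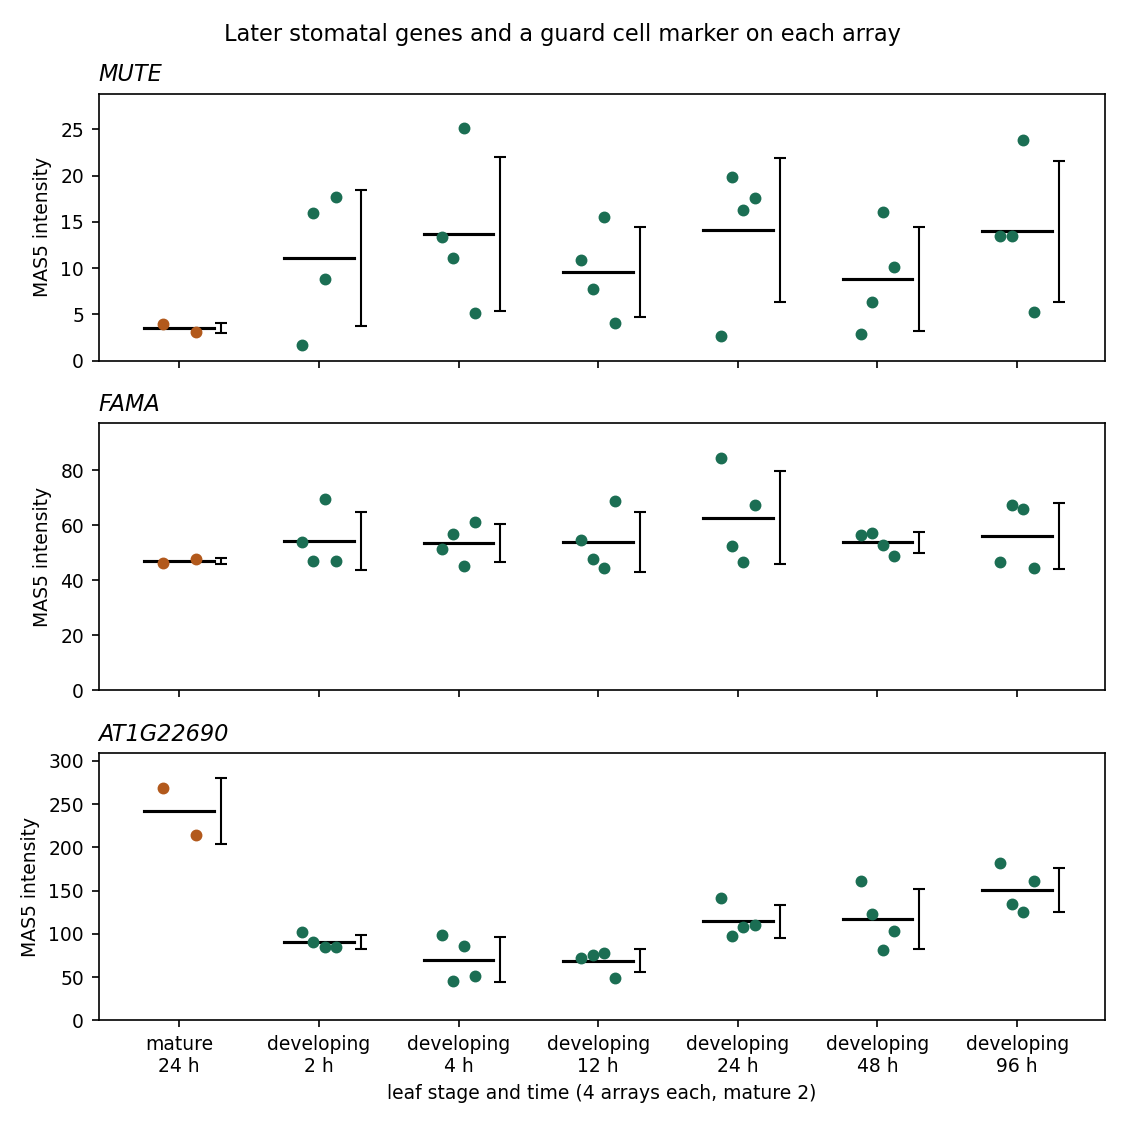
Intensity of MUTE, FAMA and the guard cell marker AT1G22690 on each array (points), with group means (horizontal lines) and SD (vertical bars), for mature leaves at 24 h on the left and developing leaves from 2 to 96 h to the right, each panel on its own axis from 0. MUTE and FAMA overlap between stages, while AT1G22690 lies at 215 and 269 in mature leaves, above the 45.5 to 181 of developing leaves.

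In the lists from here on, only probe sets with a gene name are counted, so a gene not counted may still be on the array. The guard cell list had 2 of 11 genes with a named probe set, FAMA and AT1G22690. Their summed intensity was 262 to 315 in mature leaves and 151 to 226 in developing leaves at 24 h. Over time it was 192 to 228 at 96 h and 132 to 156 at 2 h. FAMA did not share these rises. Its log2 difference was -0.35 in mature leaves against 24 h and 0.035 at 96 h against 2 h, neither called.

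The list of dividing cells had 3 of 15 genes with a probe set, the kinase AUR1 and the spindle checkpoint genes BUB3.1 and BUBR1. All 3 were called lower in mature leaves against developing leaves at 24 h, by -1.88, -1.10 and -2.45 on the log2 scale, where 37.6% of all probe sets were called lower. All 3 were also called lower at 96 h against 2 h, by -0.35, -1.15 and -1.08, where 22.7% of all probe sets were called lower. The call of AUR1 at 96 h was lost without replicate 1 or 3 of either time (adjusted p of 0.0522 to 0.0836), while those of the other 2 genes held without any 1 array. Their summed intensity was 82.8 to 89.0 in mature leaves and 274 to 317 in developing leaves at 24 h, and it was 178 to 217 at 96 h and 331 to 358 at 2 h. Over other steps the 3 genes did not move alike. AUR1 was at 0.47 at 12 h against 2 h (adjusted p = 0.00180; 20.6% called higher), where SPCH was at -0.47, and at -0.36 at 24 h against 12 h (adjusted p = 0.0146; 20.7% called lower), where SPCH was at 0.47. This second call was lost without replicate 3 of 12 h (adjusted p = 0.0570). BUB3.1 was called at -0.67 at 12 h against 2 h, the sign of SPCH, where 39.2% of probe sets were called in either direction. The call of BUB3.1 held without any 1 array (limma adjusted p up to 6.4e-04), while BUBR1 was at 0.019. At 24 h against 12 h neither BUB3.1 (mean intensity 94.7 at 12 h, 98.4 at 24 h) nor BUBR1 (49.3, then 38.3) was called.

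The photosynthesis list had 4 of 12 genes with a probe set, and all 4 were called higher in mature leaves against developing leaves at 24 h (24.1% of all probe sets called higher) and at 96 h (20.4%). All 4 were also called higher at 96 h against 2 h (19.1%), but with the actin covariate the adjusted p of LHCB4.1, RCA and PSAN in that comparison was 0.313, 0.404 and 0.0599, and after quantile normalization LHCB4.1 was at 0.067 (adjusted p = 0.390). Their summed intensity was 14762 to 21936 in mature leaves, against 10321 to 17479 in developing leaves at 24 h, where replicate 1 was the highest and also had the lowest correlation with its group (0.958). Without replicate 2 of mature leaves, 0 of the 4 kept its call against 24 h (adjusted p of 0.0927 for SBPASE to 0.656 for RCA) or against 96 h (0.0878 for LHCB4.1 to 0.340 for SBPASE). RCA and PSAN also lost theirs without replicate 2 or 3 of developing leaves at 24 h. At 96 h against 2 h, RCA lost its call without replicate 2 of 2 h or replicate 2 or 3 of 96 h (adjusted p of 0.0506 to 0.0892). After quantile normalization LHCB4.1 and RCA lost their calls against 24 h, and all 4 lost theirs against 96 h, where LHCB4.1 turned to -0.020. Against 24 h, RCA and PSAN also lost theirs with no filter (limma adjusted p = 0.0566 and 0.0705) and with the actin covariate (0.0904 and 0.0846). PSAN lost its call there with the replicate number as a block too (0.0556).

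**Figure D4:**
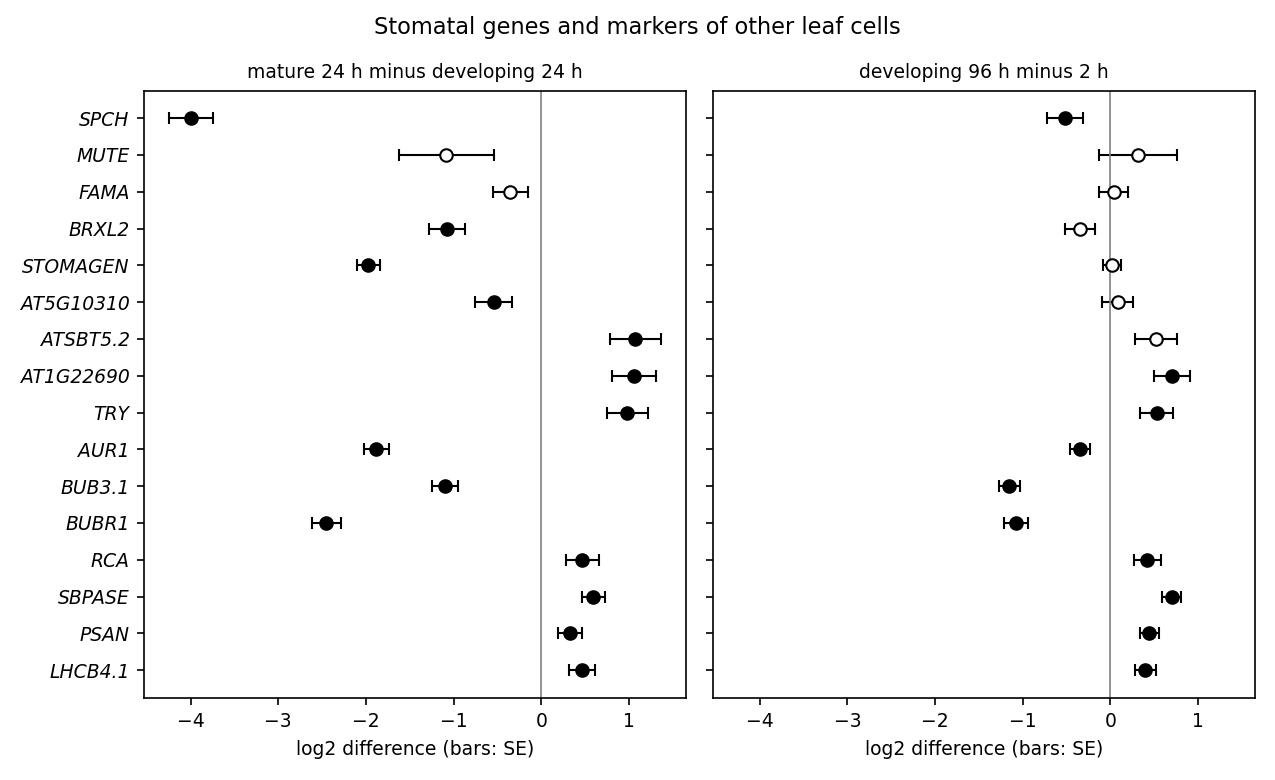
Log2 differences (points) with standard errors (bars) of the stomatal genes and of markers of guard cells, trichomes, dividing cells and photosynthesis, for mature minus developing leaves at 24 h (left) and for developing leaves at 96 h minus 2 h (right), on a shared axis. Filled points are called, at an adjusted p under 0.05, and open points are not. SPCH lies at -3.99 on the left, a size that depends on the constant added before the log, and the 3 genes of dividing cells lie below 0 on both sides.

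For epidermis 1 of 7 genes had a probe set, the receptor kinase ACR4, with 2.49 and 7.03 in mature leaves and 5.57 to 28.5 in developing leaves at 24 h. Its log2 difference was -1.33 ± 0.39 (SE; limma adjusted p = 0.00741; 24.2% of the 22746 probe sets called lower), a call lost without replicate 1 of mature leaves (adjusted p = 0.149). ACR4 was also lower at 96 h, at 2.85 to 17.2, against 29.6 to 38.1 at 2 h, with no overlap and a difference of -1.38 ± 0.32 (adjusted p = 0.00179; 14.1% called lower; 0.0545 with the actin covariate). This 1 epidermal gene was thus called lower in these 2 comparisons, in which SPCH was called lower too. ACR4 was dim, at the 9.74 and 17.5 percentile of the mature arrays, and its mature arrays overlapped those of 24 h. Over the alternative settings and with single arrays left out, its change against 24 h ran from -1.78 to -0.62. In mature leaves against 96 h, where SPCH was also called lower, ACR4 was at -0.68 and was not called.

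For trichomes 1 of 6 had one, TRY, with 119 and 130.1 in mature leaves and 32.9 to 80.6 in developing leaves at 24 h. At 96 h against 2 h TRY was at 0.53 (adjusted p = 0.0282; 19.1% called higher), a call lost without replicate 1 or 3 of 96 h or replicate 3 or 4 of 2 h (adjusted p of 0.0546 to 0.118). The senescence regulator WRKY53, 1 of 7 in its list, had 112 and 179 in mature leaves and 18.5 to 23.1 in developing leaves at 24 h. At 96 h against 2 h it was at 1.60 (adjusted p = 9.96e-08; 12.5% of the 22746 probe sets called higher). The meristem gene CLV3, 1 of 8, lay between 1.74 and 4.96 on all developing arrays and at 3.24 and 3.26 in mature leaves. No vascular marker of 7 had a probe set with a name here. The part of these other cell types in the levels of SPCH and STOMAGEN was not tested.

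Among 7444 other genes with a probe set that named 1 gene and passed the filter, the 5 most like SPCH by Pearson r over the 26 arrays were AT4G38660 (0.96), AT2G43800 (0.96), AT5G48360 (0.96), GPDHC1 (0.95) and AT1G25260 (0.95). Of these AT5G48360 was as near the floor in mature leaves as SPCH, at 3.19 and 3.23, against 74.6 to 211 in developing leaves. The 5 most like STOMAGEN were AT5G45670 (0.96), AT2G33850 (0.96), AT3G05730 (0.96), AT4G29020 (0.95) and HVA22C (0.95).

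These correlations describe the gap between stages. Within the 24 developing arrays they were 0.49 to 0.64 for the genes most like SPCH and 0.12 to 0.37 for those most like STOMAGEN. The arrays share their scaling, and no p is given.

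No measured gene next to SPCH or STOMAGEN on the chromosome was called lower in mature leaves. Against developing leaves at 24 h, 24.2% of all 22746 probe sets were called lower and 18.8% higher. With so few neighbours, their calls cannot be told from these shares. The neighbours of SPCH were TRY, a small MYB protein that limits trichome formation, at a log2 difference of 0.98 (limma adjusted p = 0.00164 in the fit of all 22746 probe sets) against developing leaves at 24 h, and AT5G53220, at 0.072 (adjusted p = 0.824). Of the neighbours of STOMAGEN, AT4G12980 was at 1.14 (adjusted p = 8.89e-09) and GILT at -0.29 (adjusted p = 0.539).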

How the data were processed

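The study measured transcript levels on whole-genome arrays, 26 in all, from leaves of 7 groups taken from the sample labels. Intensity values were made by the authors with MAS5, per the submitters' processing notes, and were deposited on a linear scale; the version, background settings and presence calls are not given in the sources used here. The deposited intensities have a 2% trimmed mean of 100 on every array, as found from the values.

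From these, log2(intensity + 4.35) was computed, the constant being 10% of the median of all values (43.5). The 64 control probe sets were left out. Probe sets with a mean log2 value at or above the 40th percentile (4.99) were kept, 13648 of 22746, of which 7445 name 1 gene, 259 several and 5944 none in the tables used here. Names came from the array annotation, updated through a RefSeq gene table, with 1 probe set for each gene named. Genes under the filter were tested in a fit of all 22746.

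One limma model (limma 3.58.1, R 4.3.3) of the 7 groups with an intensity trend gave moderated tests of each comparison, adjusted by Benjamini-Hochberg over all probe sets fitted, with a threshold of 0.05. The difference between the changes of the 2 genes was tested by exact permutation over arrays, adjusted over 7 comparisons. The steps were checked on simulated data. No pair of arrays held identical values (highest r 0.996).

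Alternatives were the constant, the filter, quantile normalization, no intensity trend, array weights, the replicate number as a block, the actin ratio as a covariate, and fits of the compared arrays alone or without each array; the slopes and the repeats for other genes were added after the data were seen. The genes described, the gene lists and the tests were chosen with earlier results of these data known. Named genes are SPCH, STOMAGEN, all measured genes of the stomatal lists, and the 5 genes most correlated with each. Probe and gene sequences were not used here.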

Additional observations from a re-analysis of the deposited data

Results flagged for a closer look

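In developing leaves at 24 h, MUTE was 2.62 in replicate 1, while the other 3 arrays lay between 16.3 and 19.9. The gap to the nearest array was 0.871 of the whole range of the group, over the critical value of Dixon's test for 4 samples. In developing leaves at 48 h, ATSBT5.2 was 34.8 in replicate 1, and the other 3 arrays lay between 22.1 and 23.9, a gap of 0.833 of the range. Both genes are dim. Of 42 groups of 4 arrays tested for the stomatal pathway genes 2 stood out in this way, and chance gives about 1 in 20. SPCH and STOMAGEN had no such array at any time.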

How the results depend on the processing

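The lower levels of SPCH and STOMAGEN in mature leaves kept their call under all 10 alternative settings and without any 1 array. The fall of SPCH at 96 h against 2 h lost its call with no filter (-0.52), with quantile normalization (-0.51), with no intensity trend (-0.52), with array weights (-0.44) and with the actin covariate (-0.17), and the cause was not tested. Without single arrays it ran from -0.61 to -0.44. With the replicate number as a block, SPCH passed over the 6 times (F = 3.28), at 12 h against 2 h (-0.47), at 24 h against 12 h (0.47) and at 96 h against 24 h (-0.52). Arrays of the same number deviated together little (mean r 0.082, against -0.027 for other numbers; 15 of 24 correlated best with their own number), so this pairing is a hint from the data and not from the design. STOMAGEN changed sign, without passing in either direction, with array weights at 24 h against 12 h (-0.0088) and in its slope over 24 to 96 h (-0.037). The slope of SPCH passed without 12 h (-0.12). LHCB4.1 turned to -0.020 after quantile normalization in mature leaves against 96 h.

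Leaving out single arrays moved the F of SPCH from 1.95 to 3.76, and the slope of SPCH from -0.11 to -0.075. SPCH ran from -0.67 to -0.26 at 12 h against 2 h, from -0.16 to 0.14 at 24 h against 2 h, from 0.26 to 0.67 at 24 h against 12 h, and from -0.66 to -0.36 at 96 h against 24 h. STOMAGEN ran from -0.017 to 0.14 at 12 h against 2 h, from -0.0075 to 0.064 at 96 h against 2 h, and from -0.041 to 0.13 at 24 h against 12 h. The difference of the 2 changes at 24 h against 2 h ran from -0.047 to 0.33. Counts over all probe sets moved by more than 1.5 times at 48 h against 24 h (43, against 28 with no filter, 21 with no trend, 171 with array weights, 95 with the actin covariate and 1 with the compared arrays alone). They also did so at 4 h against 2 h (319, against 567 with array weights), 96 h against 48 h (470, against 1097 with array weights) and 96 h against 24 h (2354, against 1378 with the compared arrays alone). Low signal limits MUTE, ACR4 and the level of SPCH in mature leaves.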
